A study of Mus musculus with 9 samples.

Results

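Among 54532 genes in an RNA-seq table of RAW264.7 cells, 40 genes that ATF4 controls or that supply cells with amino acids were followed across control cells, LPS-treated cells and cells given LPS together with G-CDs. The members are the genes of a list of symbols, drawn up with earlier results of these data known, of stress regulators, feedback genes, synthesis enzymes, transporters and aminoacyl-tRNA synthetases. All 40 symbols were found, and 39 passed the filter on low values, which kept genes that reached an FPKM of 1 in 3 or more of the 9 libraries. FPKM counts the reads of a gene per kilobase of its length and per unit of sequencing depth. RAW264.7 is a mouse macrophage line established from a virus-induced tumour, for which the labels give ascites as the source and a WT genotype. The control group was given neither agent. The LPS group received lipopolysaccharide, a component of the bacterial outer membrane, at 1 μg/ml, and the LPS + G-CDs group received the same LPS with G-CDs at 400 μg/ml, both for 6 h. G-CDs are carbon dots, nanometre-sized carbon particles, made from Glycyrrhiza. The last group carries G-CDs in its titles, LPS alone as its labelled treatment and both agents in the description of the series. Each group held 3 libraries. The labels do not say whether these came from separate cultures, so p-values measure only the spread between these samples, which may be technical. No group given G-CDs without LPS was analysed here.

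ATF4 is the main transcription factor of the integrated stress response. Kinases that sense viral RNA, unfolded proteins, lack of amino acids or lack of heme phosphorylate the initiation factor eIF2, which lowers protein synthesis in general while the Atf4 mRNA is translated more. ATF4 then pairs with C/EBP and other leucine zipper proteins and drives genes for amino acid synthesis, amino acid uptake and tRNA charging, together with genes that shut the response off again. Activated macrophages use amino acids for protein synthesis, for nitric oxide and for glutathione.

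ATF4 and a C/EBP partner bind a composite site, the C/EBP-ATF response element, whose core was searched here as TGATGNAA on both strands of the RefSeq promoters (GRCm38.p6), each from -250 to 50 bases around a transcription start. Of 39 members searched, 32 had a promoter in that table, and 12 of these (37.5%) held the core in at least 1 promoter, against 1219 of all 27025 genes (4.51%). Counted by promoter, the shares were 12 of 39 member promoters (30.8%) and 1304 of all 32851 promoters (3.97%). The form TGATGCAA, which is a subset of TGATGNAA, was found in 8 of the 32 members and in 279 of all genes (1.03%). The 12 members held 1 core each, of which 8 read TGATGCAA, 2 read TGATGAAA and 2 read TGATGTAA. The windows of the 8 matched members that were higher in LPS + G-CDs cells than in control cells follow, each read on the strand that gives the core forward, with the core in capitals and 10 bases on either side, because they let the shared core be compared between a regulator, an enzyme, a transporter and a synthetase.
Trib3, chr2:152344029-152344056, + strand: cccgcccggcTGATGTAAacctgagcta
Nupr1, chr7:126625563-126625590, + strand: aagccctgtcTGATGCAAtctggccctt
Jdp2, chr12:85599373-85599400, + strand: tagccggggcTGATGCAAcccgtcccgc
Chac1, chr2:119351039-119351066, − strand: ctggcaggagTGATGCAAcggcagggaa
Asns, chr6:7693215-7693242, − strand: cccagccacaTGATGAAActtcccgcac
Pck2, chr14:55540153-55540180, − strand: tgtaagatacTGATGTAActttgaaggc
Slc1a4, chr11:20332700-20332727, + strand: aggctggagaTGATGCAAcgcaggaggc
Tars, chr15:11399656-11399683, + strand: gctaaccagcTGATGCAAcgggactcct
The first base of the core lay from 200 bases before to 15 bases after a start over the 12 matches. A match describes these letters only and is neither a measured binding site nor a cause of a level.

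**Figure D1:**
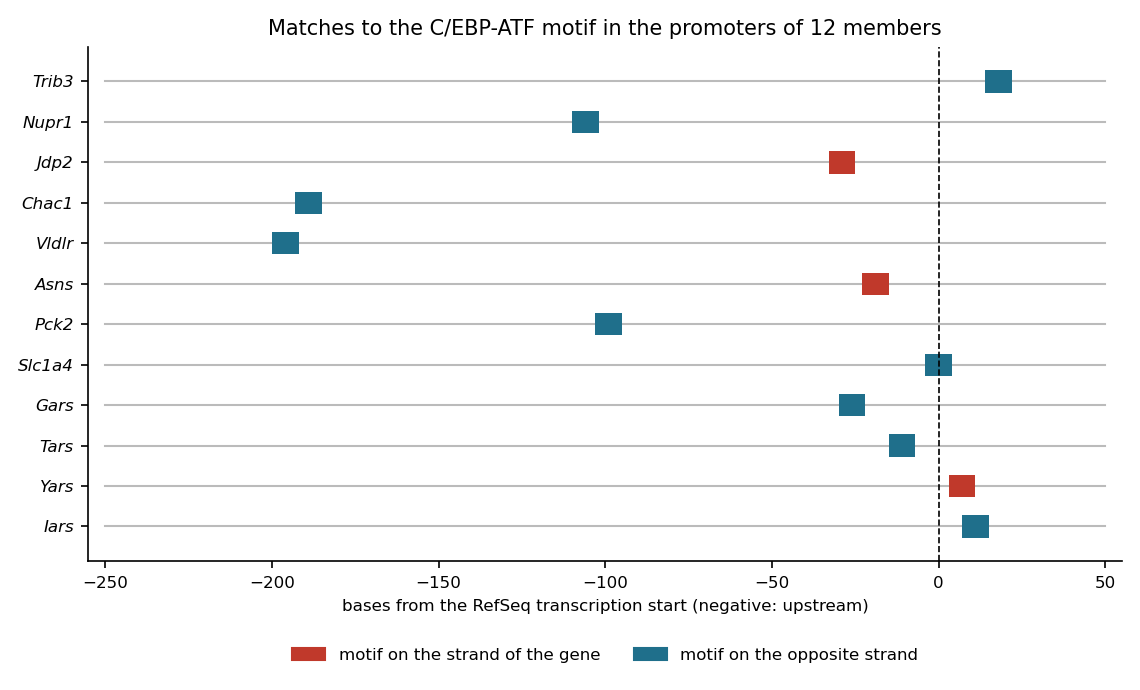
Position of each TGATGNAA match in the RefSeq promoters of 12 members, in bases from the transcription start on the x axis, with 1 line per gene, red for a match on the strand of the gene and blue for the opposite strand. The 12 matches start between -200 and 15 bases.

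Chac1, the member that LPS raised most on the log2 scale, carries its match at -193 bases, and its upstream region is shown for that reason. The 200 bases at chr2:119350992-119351191 (+ strand, from -250 to -51 bases relative to the RefSeq start, outside the transcript) read as follows, with the core in capitals as it stands on the strand of the gene, which is the reverse complement of TGATGCAA.
Chac1 upstream: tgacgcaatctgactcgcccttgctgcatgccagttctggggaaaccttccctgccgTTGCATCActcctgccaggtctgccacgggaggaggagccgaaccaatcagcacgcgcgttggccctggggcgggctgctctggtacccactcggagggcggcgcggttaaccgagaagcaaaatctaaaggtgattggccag

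The libraries held 14752400 to 17312255 reads on genes each. All 8 macrophage markers exceeded an FPKM of 1 in every library, and 0 of 16 markers of lymphocytes, fibroblasts, epithelium, mesothelium, endothelium, neutrophils and mast cells did so. Of these 16, 6 were at 0 in all libraries (Col3a1, Pdgfra, Epcam, Msln, Ly6g and Cpa3). The sum of the 16 was 0.803 to 1.47 FPKM in control, 1.22 to 2.09 in LPS and 2.0 to 3.24 in LPS + G-CDs libraries, and the highest value was 2.15 FPKM, of S100a8 in LPS + G-CDs replicate 3. Their part in the results was not tested. The LPS response was present, with log2 fold changes for LPS against control of 5.59 for Tnf, 8.72 for Il1b and 5.73 for Nos2, and so was the response of Nrf2 targets to G-CDs, with 3.23 for Hmox1, 2.22 for Srxn1 and 2.03 for Gclm against LPS. The median SD of a gene between replicates was 0.087 on the log2 scale in the LPS group, 0.244 in control and 0.259 in LPS + G-CDs. In bulk libraries, less of an RNA in every cell and fewer cells that carry it cannot be told apart.

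Most stress regulators, part of the feedback genes and part of the supply genes rose with LPS, and differences between these roles were not tested. Of the 39 tested members, 17 rose and 2 fell in LPS-treated cells against control cells (limma, Benjamini-Hochberg adjusted p under 0.05 over 11585 genes), where 15.8% of all tested genes rose and 15.6% fell. The median log2 fold change of the members was 0.46, and 32 of 39 values were positive, beside a median of 0.02 over all genes. By role, 5 of 6 stress regulators rose, with a median log2 fold change of 1.24. Of 6 tested feedback genes and growth brakes, 3 rose and 1 fell, with a median of 1.21. Of 8 enzymes of amino acid and one-carbon synthesis, 2 rose, with a median of 0.07 that was -0.19 with TPM and with voom. Of 7 amino acid transporters, 3 rose, with a median of 0.46, and of 12 aminoacyl-tRNA synthetases, 4 rose and 1 fell, with a median of 0.43. With TPM and voom, the transporter medians were 0.24 and 0.25, with 0 rises in each. Those of the synthetases were 0.168 and 0.172, with 1 rise and 1 fall in each. Rescaling to a common sum per library (TPM) moved the median of all genes to -0.23, and 11 members then rose and 5 fell, where 8.66% of all genes rose and 26.4% fell. The 6 rises lost under TPM were those of Slc7a1, Slc3a2, Slc1a4, Aars, Tars and Cars, and the falls gained were those of Phgdh, Psat1 and Shmt2. The same 6 rises were lost with voom on reads, where 4 members fell and 9.91% of all genes rose and 27.1% fell. With the replicate number as a block, 20 rose and 2 fell, with Slc38a2, Iars and Wars added (adjusted p = 0.03, 0.0371 and 0.0489). The calls over all 11585 genes grew as well, to 2115 higher and 1989 lower from 1827 and 1803 without the block. Relative to the median of all genes, the median of the members lay 0.44 higher as deposited, 0.45 higher with TPM and 0.46 higher with voom.

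G-CDs on top of LPS left no member past the adjusted threshold, although most values leaned upward. With limma, 0 of 39 members were higher and 0 lower in LPS + G-CDs cells than in LPS-treated cells, where 0.25% of all genes were higher and 0.242% lower, and voom on reads also called 0. At an unadjusted p under 0.05 there were 9 members, 8 of them with a positive value, against 15.2% of all genes in either direction. At the study's threshold of an unadjusted p under 0.01 and over 1.5-fold, 4 members were higher, namely Slc3a2, Eif4ebp1, Psph and Pck2, and 0 lower, against 1.24% of all genes in each direction. This count was 1 without any single LPS library and without LPS + G-CDs replicate 2 or 3, with Slc3a2 as the member left each time. Over all 11585 genes, 91 to 106 were higher in these fits. The count was 7 without LPS + G-CDs replicate 1, with Asns, Nupr1 and Trib3 added to the 4, where the share of all genes higher was 4.95%. For 19 members the lowest LPS + G-CDs library exceeded the highest LPS library, against 12.9% of all genes, and for 1 member, Sesn2, the order was the opposite, against 15.0%. The median log2 fold change of the members was 0.23, with 32 of 39 positive, beside 0.02 over all genes. By role, the medians were 0.38 for stress regulators, 0.18 for feedback genes, 0.46 for synthesis enzymes, -0.00 for transporters and 0.16 for synthetases, and with TPM they were 0.22, 0.02, 0.29, -0.17 and -0.00. With TPM and an all-gene median of -0.14, the median of the members was 0.06 and 23 of 39 were positive.

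Against control cells, LPS + G-CDs cells had 22 members higher and 1 lower, where 12.8% of all genes were higher and 12.4% lower, and the median log2 fold change of the members was 0.62 beside 0.02 over all genes. This comparison shares its control libraries with the LPS comparison and its LPS + G-CDs libraries with the other, so the counts are not independent of each other. Of the 17 members higher with LPS alone and the 22 higher with both agents, 16 were shared. Slc7a1 passed with LPS alone, and Ddit4, Eif4ebp1, Lars, Pck2, Psph and Sars passed with both agents. With TPM, where the all-gene median was -0.38, the counts were 17 higher and 4 lower, beside 6.57% and 27.8% of all genes, and the rises lost were those of Lars, Aars, Slc1a4, Tars and Ddit4. With voom, where it was -0.23, they were 19 and 3, beside 8.63% and 22.1%, and those of Lars, Aars and Ddit4 were lost.

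**Figure D2:**
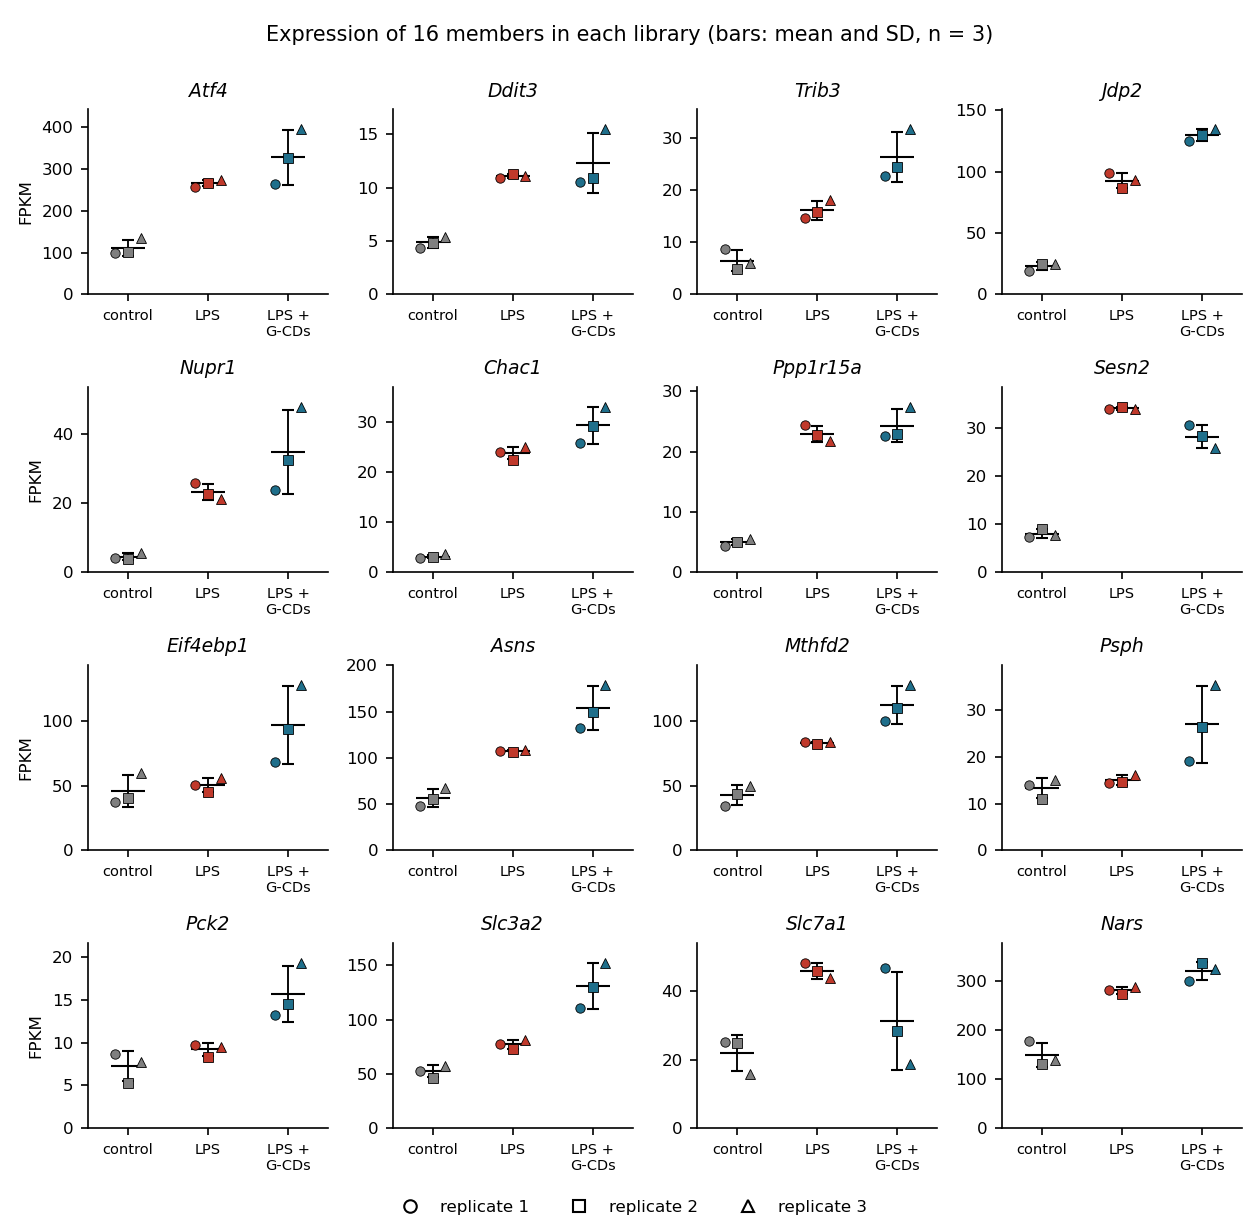
FPKM of 16 members in each library (y axis, each from 0) for control, LPS and LPS + G-CDs (x axis), with circles, squares and triangles for replicates 1, 2 and 3 and bars for the mean and SD of 3 libraries. In Chac1, Ppp1r15a, Sesn2 and Jdp2 the control libraries lie far below all others, whereas in Eif4ebp1, Psph and Pck2 the LPS + G-CDs libraries stand apart from both other groups.

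Among the stress regulators, Atf4 itself (GRCm38, chr15:80255184-80257541, + strand) was abundant. It measured 99.01, 100.5 and 134 FPKM in control, 258, 267 and 273 in LPS and 264, 326 and 396 in LPS + G-CDs libraries 1 to 3. All treated libraries lay above all control libraries, while LPS + G-CDs replicate 1 fell among the LPS libraries and replicates 2 and 3 stood above them. The log2 fold change was 1.26 with LPS (standard error 0.19, limma adjusted p = 0.00101), 0.28 for G-CDs on top of LPS (standard error 0.19, adjusted p = 0.398) and 1.55 for both agents against control (adjusted p = 0.000368). Ddit3 encodes CHOP, a leucine zipper protein that promotes cell death under lasting stress. Its level was 4.39, 4.83 and 5.41 FPKM in control, 10.9, 11.2 and 11.1 in LPS and 10.5, 10.9 and 15.5 in LPS + G-CDs libraries. Ddit3 rose with LPS by 1.04 on the log2 scale (standard error 0.15, adjusted p = 0.00085), and the LPS + G-CDs libraries overlapped the LPS libraries, at 0.12 on the log2 scale (standard error 0.15, adjusted p = 0.64). That last value turned to -0.04 with TPM and to -0.05 without LPS + G-CDs replicate 3.

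Trib3, a pseudokinase that restrains ATF4, was lowest in control and highest in LPS + G-CDs libraries. Its libraries measured 8.71, 4.78 and 5.95 FPKM in control, 14.5, 15.8 and 18.03 in LPS and 22.6, 24.4 and 31.7 in LPS + G-CDs cells, with no overlap between any groups. The log2 fold change was 1.22 with LPS (standard error 0.20, adjusted p = 0.00199) and 0.66 for LPS + G-CDs against LPS (standard error 0.20, unadjusted p = 0.0105, limma adjusted p = 0.249), which did not pass. Jdp2, a leucine zipper repressor that pairs with other stress factors, had the same order of groups. It stood at 19.4, 24.9 and 24.9 FPKM in control, 99.2, 86.4 and 92.8 in LPS and 125, 130.0 and 135 in LPS + G-CDs libraries. Jdp2 rose with LPS by 1.97 (standard error 0.13, adjusted p = 7.69e-06), and its log2 fold change for G-CDs on top of LPS was 0.48 (standard error 0.13, adjusted p = 0.207). Nupr1 encodes a small nuclear protein induced by many stresses. It measured 4.07, 3.995 and 5.65 FPKM in control, 25.8, 22.7 and 21.3 in LPS and 23.9, 32.5 and 47.8 in LPS + G-CDs libraries. LPS + G-CDs replicate 1 lay among the LPS libraries, and replicates 2 and 3 lay above all of them. Nupr1 rose by 2.13 with LPS (standard error 0.23, adjusted p = 0.000168) and its value for LPS + G-CDs against LPS was 0.51 (standard error 0.23, adjusted p = 0.326). Cebpg, a C/EBP partner of ATF4, stayed between 7.23 and 8.65 FPKM in all 9 libraries and overlapped in every comparison.

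The feedback genes held the largest LPS rise of the set. Chac1 (chr2:119351229-119354381, + strand) encodes an enzyme that breaks down glutathione. It measured 2.83, 3.05 and 3.57 FPKM in control, 23.9, 22.4 and 24.9 in LPS and 25.7, 29.2 and 32.96 in LPS + G-CDs libraries, with no overlap between groups. Chac1 rose 7.54-fold in mean FPKM with LPS, a log2 fold change of 2.58 on the log2(FPKM + 1) scale (standard error 0.13, adjusted p = 1.05e-06), and its log2 fold change for G-CDs on top of LPS was 0.29 (standard error 0.13, adjusted p = 0.325). Ppp1r15a encodes GADD34, which directs a phosphatase to eIF2 and so ends the translation block. Its libraries measured 4.43, 5.1 and 5.47 FPKM in control, 24.3, 22.8 and 21.7 in LPS and 22.6, 22.9 and 27.4 in LPS + G-CDs cells. Ppp1r15a rose with LPS by 2.0 (standard error 0.12, adjusted p = 4.39e-06) and overlapped between the LPS and LPS + G-CDs groups, where its log2 fold change was 0.07 (standard error 0.12, adjusted p = 0.722).

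Sesn2 and Eif4ebp1 both limit growth, the former as a leucine sensor that holds back mTORC1 and the latter, 4E-BP1, by binding the cap-binding factor eIF4E, and their patterns differed. Sesn2 measured 7.41, 9.04 and 7.74 FPKM in control, 33.9, 34.4 and 33.95 in LPS and 30.6, 28.2 and 25.8 in LPS + G-CDs libraries. It rose with LPS by 1.96 (standard error 0.11, adjusted p = 3.36e-06), and all LPS + G-CDs libraries lay below all LPS libraries, at -0.27 on the log2 scale (standard error 0.11, unadjusted p = 0.0447, limma adjusted p = 0.321). Eif4ebp1 measured 37.2, 40.2 and 60.1 FPKM in control, 50.9, 45.5 and 56.1 in LPS and 68.5, 94.1 and 128 in LPS + G-CDs libraries, so the first pair of groups overlapped and every LPS + G-CDs library lay above them. Its log2 fold change was 0.17 with LPS (standard error 0.25, adjusted p = 0.649), 0.88 for G-CDs on top of LPS (standard error 0.25, unadjusted p = 0.00696, adjusted p = 0.222) and 1.05 against control (adjusted p = 0.015). The call against control was lost without control replicate 1 or 2 and without LPS + G-CDs replicate 2, with adjusted p up to 0.0539. Ddit4, which encodes the mTORC1 inhibitor REDD1, had mean levels of 23.4 ± 7.94 FPKM in control, 31.7 ± 2.05 in LPS and 38.95 ± 3.44 with both agents (SD, n = 3). It passed for both agents against control (log2 fold change 0.76, limma adjusted p = 0.025), but not without control replicate 2 or 3 or LPS + G-CDs replicate 2 or 3, with an adjusted p of up to 0.278 over the alternatives. Stc2, a secreted glycoprotein, was the feedback gene that fell, from 22.5, 21.5 and 22.1 FPKM in control to 17.3, 15.9 and 16.7 in LPS and 16.4, 16.9 and 18.6 in LPS + G-CDs libraries. Its log2 fold change was -0.38 with LPS (standard error 0.10, adjusted p = 0.0189) and -0.33 for both agents against control (standard error 0.10, adjusted p = 0.0397). The latter call held without LPS + G-CDs replicate 3 and was lost without any other single library. It was also lost with the replicate block and with 6 libraries alone (limma adjusted p = 0.0504 and 0.154). Vldlr, a lipoprotein receptor, had 0 reads in all 9 libraries, which allows up to 3 reads or 0.0159 to 0.0216 FPKM by counting error alone.

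**Figure D3:**
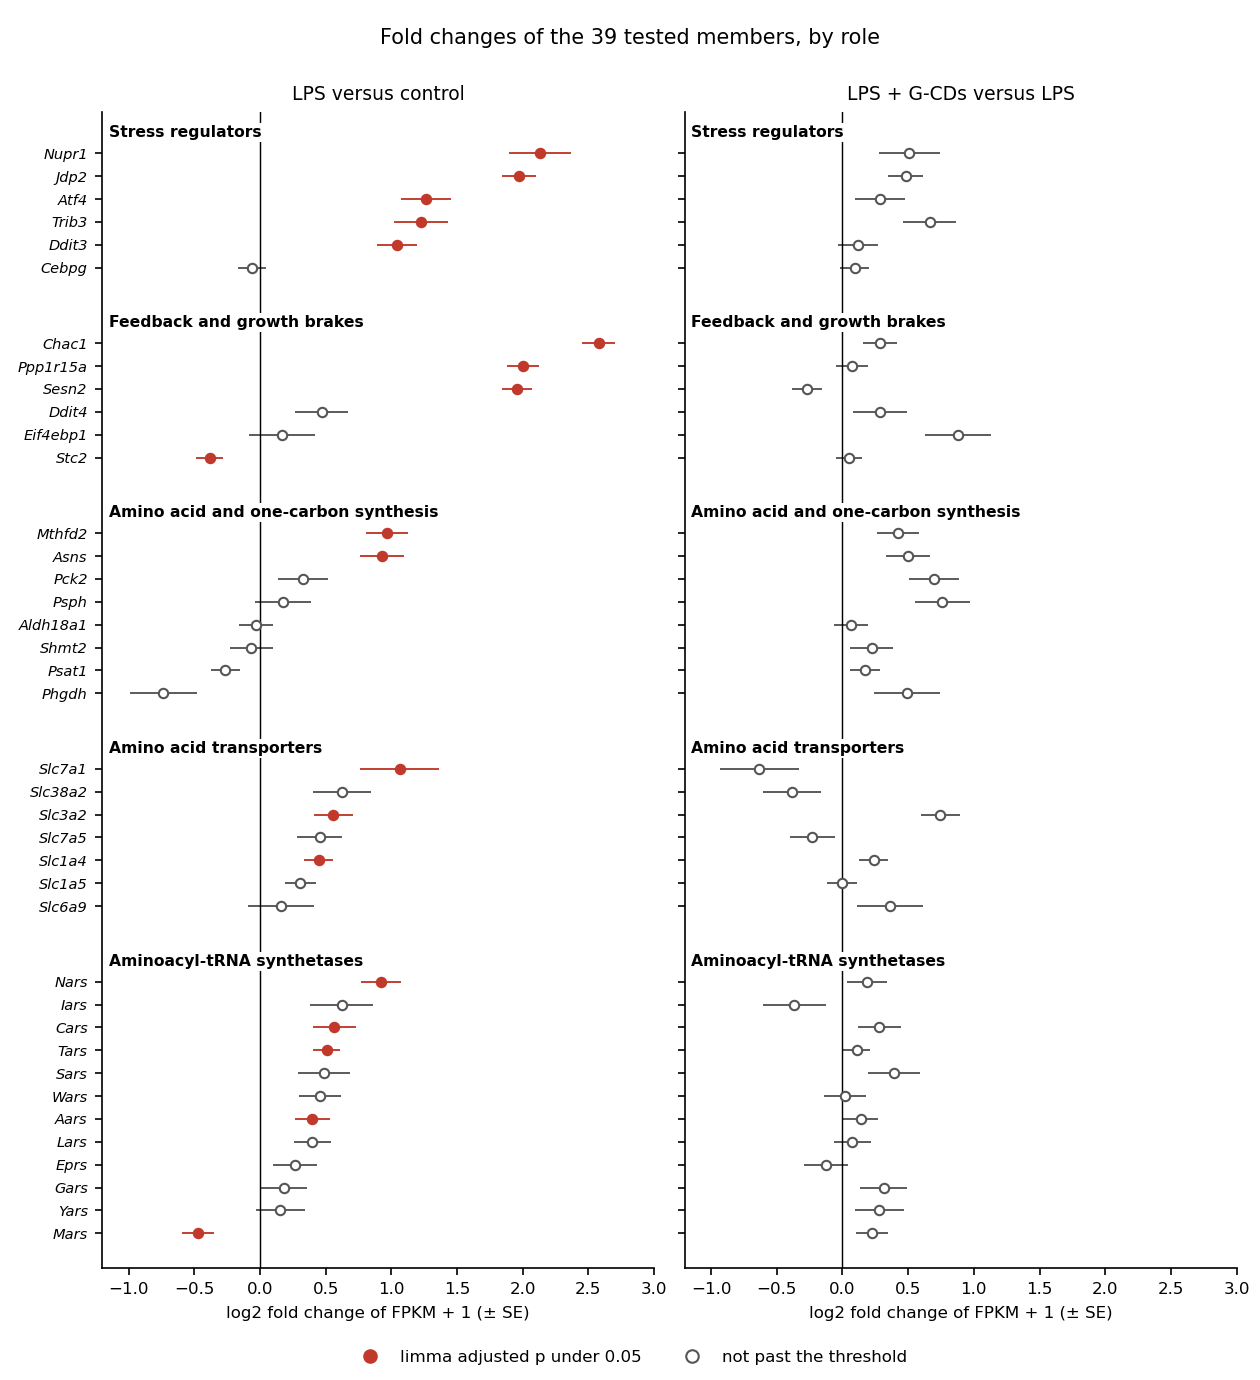
Log2 fold change of each of the 39 tested members (x axis, bars: standard error) for LPS against control on the left and LPS + G-CDs against LPS on the right, grouped by role, with filled red points past a limma adjusted p of 0.05. On the left 17 points to the right of 0 and 2 to the left are filled, and on the right none is.

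Among the enzymes, asparagine synthesis and the mitochondrial folate enzyme Mthfd2 responded to LPS and the enzymes of serine synthesis did not pass on the deposited scale, although Phgdh and Psat1 fell with TPM and with voom. Asns, asparagine synthetase, measured 47.5, 55.3 and 67.1 FPKM in control, 108, 107 and 108 in LPS and 132, 149 and 179 in LPS + G-CDs libraries, without overlap. It rose with LPS by 0.93 on the log2 scale (standard error 0.16, adjusted p = 0.00267), and its log2 fold change for G-CDs on top of LPS was 0.50 (standard error 0.16, unadjusted p = 0.0144, limma adjusted p = 0.272). Mthfd2, which makes formate units in mitochondria, measured 34.5, 43.9 and 49.9 FPKM in control, 83.7, 82.6 and 83.9 in LPS and 99.7, 109.9 and 128 in LPS + G-CDs libraries, again without overlap. Mthfd2 rose with LPS by 0.96 (standard error 0.16, adjusted p = 0.00187), and G-CDs on top of LPS gave 0.42 (standard error 0.16, unadjusted p = 0.0275, adjusted p = 0.307).

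Psph and Pck2 did not pass for LPS and stood higher in every LPS + G-CDs library. Psph, the phosphatase of the last step of serine synthesis, measured 13.9, 10.96 and 15.1 FPKM in control, 14.4, 14.6 and 16.2 in LPS and 19.03, 26.5 and 35.5 in LPS + G-CDs libraries. Its log2 fold change was 0.17 with LPS (adjusted p = 0.58), 0.76 for G-CDs on top of LPS (standard error 0.21, unadjusted p = 0.00607, adjusted p = 0.211) and 0.93 against control (standard error 0.21, adjusted p = 0.0117). Pck2, the mitochondrial form of phosphoenolpyruvate carboxykinase, measured 8.73, 5.33 and 7.7 FPKM in control, 9.71, 8.39 and 9.56 in LPS and 13.3, 14.5 and 19.4 in LPS + G-CDs libraries. Its log2 fold change was 0.33 with LPS (adjusted p = 0.227), 0.70 for G-CDs on top of LPS (standard error 0.19, unadjusted p = 0.00537, adjusted p = 0.204) and 1.02 against control (standard error 0.19, adjusted p = 0.00407). All 3 LPS + G-CDs libraries of both genes lay above all 6 other libraries. The other serine enzymes, Phgdh and Psat1, had lower values in all 3 LPS libraries than in all control libraries without passing the test, with log2 fold changes of -0.74 (adjusted p = 0.0551) and -0.26 (adjusted p = 0.111). Shmt2, which links serine to mitochondrial folate, and Aldh18a1, an enzyme of proline synthesis, overlapped in every comparison. Over the 8 enzymes, the median log2 fold change of LPS + G-CDs against LPS was 0.46, or 0.29 with TPM, and 6 of 8 were higher without overlap between the groups, beside 12.9% of all genes.

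Of the transporters, Slc3a2 had the smallest p of all members for G-CDs on top of LPS. Slc3a2 (chr19:8706882-8723369, − strand) encodes the 4F2 heavy chain, which carries Slc7a5, Slc7a11 and other light chains to the membrane. It measured 52.6, 46.6 and 57.6 FPKM in control, 77.9, 72.5 and 81.2 in LPS and 111, 130.3 and 153 in LPS + G-CDs libraries, with no overlap between any groups. The log2 fold change was 0.56 with LPS (standard error 0.15, adjusted p = 0.0213), 0.75 for G-CDs on top of LPS (standard error 0.15, unadjusted p = 0.000828, limma adjusted p = 0.101) and 1.3 against control (standard error 0.15, adjusted p = 0.00027). The LPS call was lost without control replicate 2 and without any single LPS library, and the value for G-CDs passed without LPS + G-CDs replicate 1. Slc7a1, the arginine and lysine transporter CAT1, stood below the LPS libraries in 2 of 3 LPS + G-CDs libraries. It measured 25.1, 24.8 and 15.8 FPKM in control, 48.4, 45.9 and 43.8 in LPS and 46.7, 28.4 and 18.8 in LPS + G-CDs libraries, so LPS + G-CDs replicate 1 lay among the LPS libraries and replicate 3 among the control libraries. Slc7a1 rose with LPS by 1.06 (standard error 0.30, adjusted p = 0.0258), a call lost without control replicate 3 or any LPS library, and its log2 fold change for G-CDs on top of LPS was -0.63 (standard error 0.30, adjusted p = 0.327). Slc1a4, a carrier of small neutral amino acids, rose with LPS from 4.96 ± 0.399 to 7.11 ± 0.33 FPKM (SD, n = 3, log2 fold change 0.45, adjusted p = 0.0147), a call lost without LPS replicate 2 or 3, and stood at 8.58 ± 0.786 with both agents. The leucine carrier Slc7a5, the glutamine carriers Slc1a5 and Slc38a2 and the glycine carrier Slc6a9 did not pass without the replicate block, with which Slc38a2 rose with LPS, and their log2 fold changes lay from 0.16 to 0.62 with LPS and from -0.38 to 0.36 for G-CDs on top of LPS.

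The aminoacyl-tRNA synthetases load amino acids onto their tRNAs, and 4 of 12 rose and 1 fell with LPS, beside 15.8% and 15.6% of all genes. With TPM and with voom, 1 of 12 rose and 1 fell, beside 8.66% and 9.91% of all genes rising and 26.4% and 27.1% falling. Nars, the asparagine enzyme, rose most. It measured 178, 131 and 139.6 FPKM in control, 282, 275 and 288 in LPS and 301, 338 and 324 in LPS + G-CDs libraries, and the 3 groups did not overlap. Nars rose by 0.92 on the log2 scale with LPS (standard error 0.15, adjusted p = 0.00182) with a value of 0.19 for G-CDs on top of LPS (standard error 0.15, adjusted p = 0.464). Cars, Tars and Aars, the enzymes for cysteine, threonine and alanine, also rose with LPS, by 0.57, 0.51 and 0.40 on the log2 scale (adjusted p = 0.0292, 0.00503 and 0.0493). The call for Tars stood without each library in turn, whereas those for Cars and Aars were lost without control replicate 2 or 3, any LPS library or LPS + G-CDs replicate 2. All of these calls were lost with TPM and with voom, where Tars had 0.246 and 0.25 (limma adjusted p = 0.208 and 0.111). Mars, the methionine enzyme, fell, from 87.5, 70.9 and 72.9 FPKM in control to 55.2, 53.01 and 57.2 in LPS libraries, with 60.9, 67.02 and 66.2 in LPS + G-CDs libraries between them. Its log2 fold change was -0.47 with LPS (standard error 0.12, adjusted p = 0.0184) and 0.23 for G-CDs on top of LPS (adjusted p = 0.348). The falls of Mars and Stc2 were both lost without any single LPS library. The remaining 7 synthetases had log2 fold changes of 0.16 to 0.62 with LPS. For G-CDs on top of LPS, the 12 synthetases ranged from -0.37 to 0.39 with a median of 0.16, which was -0.00 with TPM, and 0 of 12 had an unadjusted p under 0.05, beside 15.2% of all genes. Against control, Sars, the serine enzyme, and Lars, the leucine enzyme, were also higher with both agents, by 0.88 and 0.47 on the log2 scale (adjusted p = 0.0113 and 0.0391), and the call for Lars was lost without control replicate 2 or 3 and without any single library of the treated groups. The value for Lars was 0.04 with TPM (adjusted p = 0.861) and 0.22 with voom (adjusted p = 0.264).

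The differences between libraries of the LPS + G-CDs group and of the control group varied with gene length, over the members and over all genes. Relative to the mean of the LPS libraries, the median member stood 0.10, 0.26 and 0.26 higher on the log2 scale in LPS + G-CDs replicates 1, 2 and 3, with 32, 31 and 30 of 39 members above 0, while the control libraries stood at -0.40, -0.53 and -0.55. Within the LPS + G-CDs group, 23 members were highest in replicate 3 and 11 were lowest there. The 23 had a median gene length of 3119 bases and the 11 a median of 5141 bases. Across the 39 members, which share the libraries, the difference of replicate 3 from replicate 1 had a Spearman correlation of -0.45 with gene length, and over all tested genes it was -0.49. Among the control libraries, the same difference had a correlation of -0.42 over the members and -0.36 over all genes, and among the LPS libraries it was -0.26 and -0.11. The log2 fold change had a correlation with gene length over the members of -0.42 for LPS + G-CDs against LPS, of -0.34 for LPS against control and of -0.51 for LPS + G-CDs against control. Over all genes these were -0.41, 0.10 and -0.16. A further fit removed the length trend of each library around its group mean. This narrows the spread inside groups and leaves the group means nearly as they were. More genes therefore pass, while the correlation of the fold changes with length is not removed. In that fit, 3 members passed the adjusted test as higher for LPS + G-CDs against LPS, with 2.8% of all genes passing, against 0.25% without this step. These were Slc3a2 (log2 fold change 0.75, limma adjusted p = 0.0158), Eif4ebp1 (0.88, adjusted p = 0.0252) and Asns (0.50, adjusted p = 0.0365). Without LPS + G-CDs replicate 1 the count was 2, namely Slc3a2 and Psph, with 0.915% of all genes passing as higher.

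**Figure D4:**
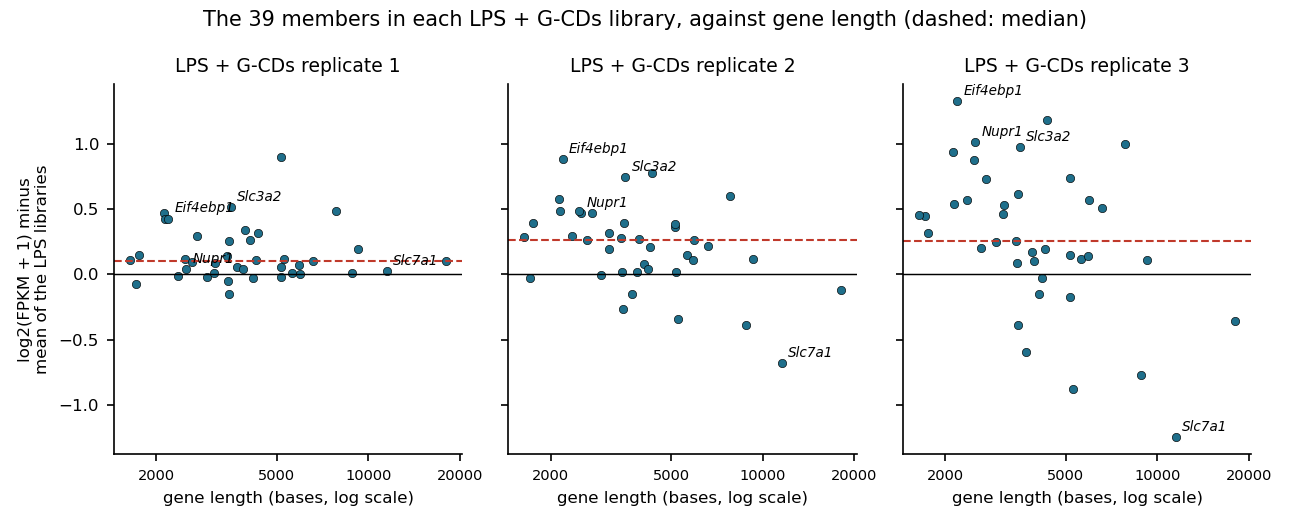
Difference of each of the 39 tested members from the mean of the LPS libraries in log2(FPKM + 1) (y axis), against gene length in bases on a log axis, for LPS + G-CDs replicates 1, 2 and 3, with the median dashed. The medians are 0.10, 0.26 and 0.26, and Slc7a1, one of the longer genes, goes from near 0 in replicate 1 to the lowest value in replicate 3.

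The genes around the set moved in both directions. Their counts for LPS against control stand beside 15.8% of all genes higher and 15.6% lower, and, with TPM and voom, beside the shares of 8.66% and 26.4% and of 9.91% and 27.1% given above. Among the kinases that phosphorylate eIF2, the subunits of eIF2 and its exchange factor eIF2B, and the phosphatase subunit Ppp1r15b, 4 of 13 rose with LPS and 0 fell, with 2 higher and 1 lower with TPM and 1 higher and 1 lower with voom. Eif2ak2, the double-stranded RNA sensor PKR and an interferon target, rose by 2.05 on the log2 scale (adjusted p = 8.65e-05), and Eif2s2, a subunit of eIF2, by 0.89 (adjusted p = 0.021). The other 3 eIF2 kinases did not pass on the deposited scale. Of 6 other stress transcription factors, 2 rose with LPS and 0 fell, with 2 and 0 with TPM and 2 and 1 with voom. The 2 that rose were Atf3 by 3.45 (adjusted p = 1.9e-07) and Atf5 by 0.91 (adjusted p = 0.00301). Atf3, a leucine zipper factor that both ATF4 and Toll-like receptor signalling induce, measured 4.43, 4.8 and 4.2 FPKM in control, 64.4, 58.1 and 54.7 in LPS and 84.3, 90.04 and 108 in LPS + G-CDs libraries, and its log2 fold change for G-CDs on top of LPS was 0.66 (adjusted p = 0.0901).

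Of 13 tested other enzymes of amino acid and one-carbon metabolism, 2 rose and 1 fell with LPS, with 2 and 5 with TPM and 2 and 4 with voom. Cth, which makes cysteine from cystathionine, rose by 2.31 (adjusted p = 1.04e-06) and Bcat1, a branched-chain aminotransferase, by 0.65 (adjusted p = 0.00122). Of 7 tested other amino acid transporters, 3 rose and 2 fell, with 2 and 2 with TPM and with voom. Slc7a11, the cystine carrier that pairs with Slc3a2, measured 2.67, 3.8 and 2.34 FPKM in control, 16.4, 16.8 and 16.2 in LPS and 52.9, 34.3 and 27.04 in LPS + G-CDs libraries. It rose with LPS by 2.17 (standard error 0.23, adjusted p = 0.000141), and its log2 fold change for G-CDs on top of LPS was 1.11 (standard error 0.23, unadjusted p = 0.00104, limma adjusted p = 0.108). Slc43a2, another carrier of large neutral amino acids, had the largest fall of these lists, with a log2 fold change of -2.72 with LPS (adjusted p = 6.14e-06). Of the 8 other cytosolic tRNA synthetases, 2 rose with LPS and 0 fell, with 1 and 1 with TPM and with voom. On the deposited scale these were Rars by 0.78 (adjusted p = 0.00221) and Dars by 0.38 (adjusted p = 0.0225). For G-CDs on top of LPS, 0 genes of these 5 lists passed the adjusted limma test, and in the order given above 2, 1, 1, 1 and 0 had an unadjusted p under 0.05, beside 15.2% of all genes.

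The TGATGNAA core, described above, was found in some of the members that rose and not in others. Of the 11 tested members with a match, 7 rose and 0 fell with LPS, with a median log2 fold change of 0.62, beside 15.8% and 15.6% of all genes, and of the 20 tested members with a promoter but no match, 7 rose and 2 fell, with a median of 0.37. For G-CDs on top of LPS, 8 of the 11 and 7 of the 20 had values above LPS without overlap of the groups, beside 12.9% of all genes. Atf4, Ddit3, Ppp1r15a, Sesn2, Mthfd2, Slc3a2 and Slc7a1 rose with LPS and had no match in these windows.

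For several members the reads could belong in part to other genes. Of the 50-base words of Phgdh transcripts, 63.1% also occur in transcripts of other genes, and for Aars the share was 22.4%, with 15.1% of its exon bases overlapped by other genes. Slc6a9 has 30.2% of its exon bases overlapped by B4galt2, Ccdc24 and Gm17114 on the opposite strand. Psph has 10.4% of its exon bases overlapped by Cct6a on the opposite strand, and Ddit3 and Mars overlap by 68 bases on opposite strands. Whether reads were counted by strand is not given in the sources used here, so reads from the overlaps cannot be told apart. The tested members held from 85 reads in a library, in Chac1, to 14772 reads, in Nars.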

How the data were processed

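RNA-seq was performed on RAW264.7 cells in 3 groups of 3 libraries, taken from the titles. Poly(A) libraries were sequenced by the authors on an Illumina NovaSeq instrument, and FPKM values per gene and library were deposited with gene coordinates and lengths. The submitters' processing notes name GRCm38 and mm10. The aligner, the counting method and the strand setting are not given in the sources used here. Of the members, 38 of 40 had the coordinates of GENCODE M21. FPKM multiplied by gene length came out in whole reads within 0.05 reads, which gave 14752400 to 17312255 reads on genes per library. The library size behind the deposited FPKM was 1.11 to 1.14 times these reads in control, 0.929 to 0.936 times in LPS and 0.88 to 0.98 times in LPS + G-CDs libraries, so the scale between groups depends on this divisor. Intervals and floors cover counting error only.

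Values were transformed as log2(FPKM + 1), which understates changes of genes near 1 FPKM, and the 11585 genes that reached 1 FPKM in 3 or more libraries entered 1 two-sided limma model of the 3 groups (version 3.58.1 under R 4.3.3, eBayes with trend). Benjamini-Hochberg adjustment ran over all 11585 genes in each of the 3 comparisons. On simulated data with 200 of 11585 genes changed, the LPS + G-CDs against LPS fit recovered 84.5% of them (100% of 4-fold and 69% of 2-fold changes), and 8.2% of its calls were false. The simulated reads had the same dispersion in all genes and libraries and no gene-length trend. The real libraries differ in both, so these shares do not tell how many changes the fit finds in these data. Python 3.11.15 with pandas 2.3.3, scipy 1.17.1 and matplotlib 3.10.9 made tables and plots. Ddit3 is listed in 2 rows, and the row of 1713 bases was used. RefSeq promoters of GRCm38.p6 were searched for TGATGNAA, and the promoter of 1 member is not reported here.

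The members and lists were chosen with earlier results of these data known. Members were described in full if called in any comparison, for up to the 10 smallest adjusted p in each, or if past an unadjusted p of 0.01 with over 1.5-fold for LPS + G-CDs against LPS, and Atf4 and Ddit3 in any case. Of the other lists, at most the 2 called genes of smallest adjusted p were named. Stc2, Mars, Slc7a1, Ddit4, Slc1a4, Cars, Tars, Aars, Sars, Lars, Phgdh and Psat1 fall outside this rule and were singled out after their values were seen. The alternatives were a pseudocount of 0.1, no filter, a filter at 5 FPKM, TPM and median-of-ratios scaling, 6 libraries alone, no trend, voom on recovered reads, removal of a gene-length trend, a replicate block, each library left out and the threshold of p under 0.01 with over 1.5-fold. Groups share replicate numbers, whose meaning the labels do not give. Deviations from the group means of same-numbered LPS and control libraries had correlations of 0.103, 0.137 and 0.113, each just above the limit of 0.1 used for pairing. Deviations also varied with gene length, and whether the numbers mark paired libraries was not tested. The main fit held no replicate block, and the fit with a block is given as an alternative.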

Additional observations from a re-analysis of the deposited data

How the results depend on the processing

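Of the 19 calls among members for LPS against control, 11 were kept under all 19 alternatives, and of the 23 calls for LPS + G-CDs against control, 15 were. The causes of the changes were not tested. For LPS against control, members higher numbered 11 with TPM and 11 with voom, and members lower numbered 5 with TPM, 4 with voom, 4 with the gene-length trend removed and 0 at p under 0.01 with over 1.5-fold. Of all genes, 8.66% and 9.91% were higher and 26.4% and 27.1% lower with TPM and voom. With the trend removed 2218 of 11585 genes were lower, and at p under 0.01 with over 1.5-fold 1298 were. For LPS + G-CDs against LPS, members higher numbered 3 with the gene-length trend removed and 4 at p under 0.01 with over 1.5-fold, beside 2.8% and 1.24% of all genes. At that latter threshold, 2 were higher with TPM and 1 was lower, Slc7a1, with the trend removed, beside 119 and 342 of 11585 genes. For LPS + G-CDs against control, members lower numbered 4 with TPM and 3 with voom, beside 27.8% and 22.1% of all genes. They numbered 0 each with 6 libraries alone, with the replicate block and at p under 0.01 with over 1.5-fold. Over all 11585 genes, these last counts were 838, 1618 and 1055. The value of Ddit3 for LPS + G-CDs against LPS was -0.042 with TPM, and -0.048 to 0.213 with each library left out, the lowest without LPS + G-CDs replicate 3. With each library left out in turn, LPS against control gave 12 to 21 members higher and 0 to 3 lower, beside 1285 to 2169 and 1189 to 2120 of all 11585 genes. LPS + G-CDs against LPS gave 0 to 2 higher and 0 lower, beside 7 to 106 and 4 to 150 genes. At p under 0.01 with over 1.5-fold it gave 1 to 7 higher and 0 to 1 lower, beside 91 to 574 and 98 to 794 genes. LPS + G-CDs against control gave 18 to 23 higher and 0 to 1 lower, beside 1017 to 1686 and 897 to 1559 genes. Leaving out any LPS library lost the LPS calls of Stc2, Mars, Slc7a1, Slc3a2, Aars and Cars.

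The replicate block gave 20 members higher and 2 lower for LPS against control, 0 and 0 for LPS + G-CDs against LPS, and 23 and 0 for LPS + G-CDs against control, with Wars gained and Stc2 lost (adjusted p = 0.0504). Over all 11585 genes, the block gave 2115 higher and 1989 lower, 28 and 25, and 1729 and 1618 in the same order. It changed no other call of a member than these and the gains named in the report. Same-numbered libraries correlated at 0.08 to 0.143 between LPS + G-CDs and LPS, with 6 of 6 libraries closest to their own number, and at 0.057 to 0.653 between LPS + G-CDs and control, with 4 of 6. Members with few reads, such as Chac1 with 85 in its lowest library, carry the most counting error.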

Other observations

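The nuclear-encoded mitochondrial aminoacyl-tRNA synthetases held falls and no rise with LPS. Of 17 tested, 0 rose and 7 fell (limma adjusted p under 0.05), with a median of -0.34, where 15.6% of all genes fell and the median was 0.02. With TPM and with voom 9 fell, where 26.4% and 27.1% of all genes fell. Vars2, the mitochondrial valine enzyme, measured 10.2, 8.96 and 8.28 FPKM in control, 4.7, 3.24 and 4.18 in LPS and 4.93, 4.43 and 4.56 in LPS + G-CDs libraries, and had a log2 fold change of -1.02 with LPS (standard error 0.14, adjusted p = 0.000579). Cars2, the mitochondrial cysteine enzyme, measured 5.55, 4.8 and 5.56 FPKM in control, 2.54, 2.46 and 2.24 in LPS and 2.78, 3.09 and 3.13 with both agents, and its log2 fold change was -0.88 (standard error 0.11, adjusted p = 0.000337). In both genes the LPS and control libraries did not overlap. For G-CDs on top of LPS, 0 of 17 passed the adjusted limma test and 3 had an unadjusted p under 0.05, beside 15.2% of all genes, with a median log2 fold change of 0.17. Against control, 0 were higher and 6 lower with both agents, beside 12.8% and 12.4% of all genes, and 10 were lower with TPM and 9 with voom, beside 27.8% and 22.1%. Of the 20 cytosolic synthetases of both lists, 6 rose and 1 fell with LPS, with a median of 0.38, beside 15.8% and 15.6% of all genes. With TPM and with voom, 1 of the 12 member synthetases rose and 1 fell, and 1 of the 8 others rose and 1 fell, with medians of 0.17 and 0.06. Of all genes, 8.66% rose with TPM and 9.91% with voom, beside the shares that fell given above. The difference between the mitochondrial and cytosolic lists was not tested.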
